A study of Mus musculus with 14 samples.

Results

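The genes that build the contractile apparatus and the membrane fusion machinery of muscle were examined for SMAD binding and histone acetylation in muscle stem cells (MuSCs) after a brief BMP6 stimulus. The group held 45 of the 21757 mouse protein-coding genes and was put together by function: actin, tropomyosins and nebulin, troponins, myosin heavy and light chains, myosin-binding proteins, Z-disc and M-band proteins, calcium handling, the dystrophin complex, energy and oxygen supply, and the 2 fusion genes Mymk and Mymx. It was chosen with earlier results of these data known, so shares set against all genes are descriptions and enrichment was not tested. Consensus peaks were assigned to a gene if they touched its canonical transcript or the 20 kb flanking it on each side. All 45 genes were found in the GENCODE annotation of GRCm39.

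MuSCs came from female mice, 9 weeks old, of the genotype C57BL/6N(Tg(Pax7-EGFP)Tajb), were sorted for the Pax7-driven green reporter and grown in culture, so the populations were cultured progenitors rather than cells in muscle. Every culture was starved for 6 h with 200 ng/mL soluble BMPR1A-Fc, a decoy receptor that removes BMPs, and then received for 1 h either 100 ng/mL BMP6 or its vehicle (4 mM HCl with 0.1% BSA), called control. CUT&Tag, in which an antibody guides a transposase to cut DNA beside its target, was run on 100000 lightly fixed cells per library with antibodies against pSMAD1/5/9, SMAD4 and H3K27ac, with 2 biological replicates for each antibody and condition. The 12 samples with a primary antibody gave 6 consensus peak lists, 1 for each antibody and condition; the 2 samples without primary antibody were not analysed here.

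SMAD1, SMAD5 and SMAD9 are the transcription factors of the BMP branch, active once their tail is phosphorylated by the occupied receptor, and SMAD4 is the partner that they share with the TGF-β branch on DNA. H3K27ac marks active promoters and enhancers. In muscle progenitors BMP signaling is known to hold back differentiation, whereas the contractile and fusion genes are switched on by MYOD, myogenin, MEF2 and their partners when cells leave the cycle and fuse.

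Each list is 1 consensus of 2 replicates without read counts, so no test between BMP6 and control could be made, the depth behind a peak is unknown, and peak strength was compared only as rank within a list (rank 1 is the strongest signal). Shares carry 95% Wilson intervals, which cover counting error over genes or peaks only. The labelled cell type was checked by H3K27ac at transcription start sites (TSSs, 2 kb on either side): 8 of 8 MuSC markers carried a peak in both conditions, as did Myog and Mymk, the pair chosen to mark the onset of differentiation. Of 4 markers each, endothelial cells had 0, immune cells 1 after BMP6 and 2 in control, fibroadipogenic cells 1, and smooth muscle cells and pericytes 2 in both conditions. The part of other cells in these results was not tested.

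Contractile and fusion genes carried SMAD peaks more often than protein-coding genes at large, in both conditions. After BMP6, 34 of the 45 (75.6%, interval 61.3 to 85.8%) had a pSMAD1/5/9 peak, against 29.1% of all genes. In control cells 11 of 45 (24.4%, 14.2 to 38.7%) had one, against 5.97%. SMAD4 was listed at 36 genes after BMP6 (80.0%, 66.2 to 89.1%, against 39.3%) and at 30 in control (66.7%, 52.1 to 78.6%, against 30.8%). H3K27ac peaks lay near 44 of the 45 genes in either condition, against 74.8% of all genes after BMP6 and 73.4% in control. The median width of the regions was 57.3 kb for these genes and 56.3 kb for all.

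At promoters, where each gene is given a window of the same width, the shares of pSMAD1/5/9 after BMP6 and of SMAD4 also lay above those of all genes, but that of control pSMAD1/5/9 could not be told from the background. Within 2 kb of the TSS, 20 genes (44.4%, 30.9 to 58.8%) had a pSMAD1/5/9 peak after BMP6, against 12% of all genes, and 2 (4.44%, 1.23 to 14.8%) had one in control, against 1.74%. The latter 2 were Mymk, which encodes the fusion protein myomaker, and Mybph, which encodes myosin-binding protein H. SMAD4 was found at the TSS of 24 genes after BMP6 (53.3%, 39.1 to 67.1%, against 17.8%) and of 21 in control (46.7%, 32.9 to 60.9%, against 12.4%). H3K27ac was found at 38 TSSs in either condition (84.4%, 71.2 to 92.3%), against 55.1% after BMP6 and 53.0% in control. Myh2, Myh4, Myh8, Myl2, Myl3 and Mybpc2 lacked acetylation at the TSS in both conditions, Myom1 lacked it after BMP6 and Sgcd in control.

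**Figure D1:**
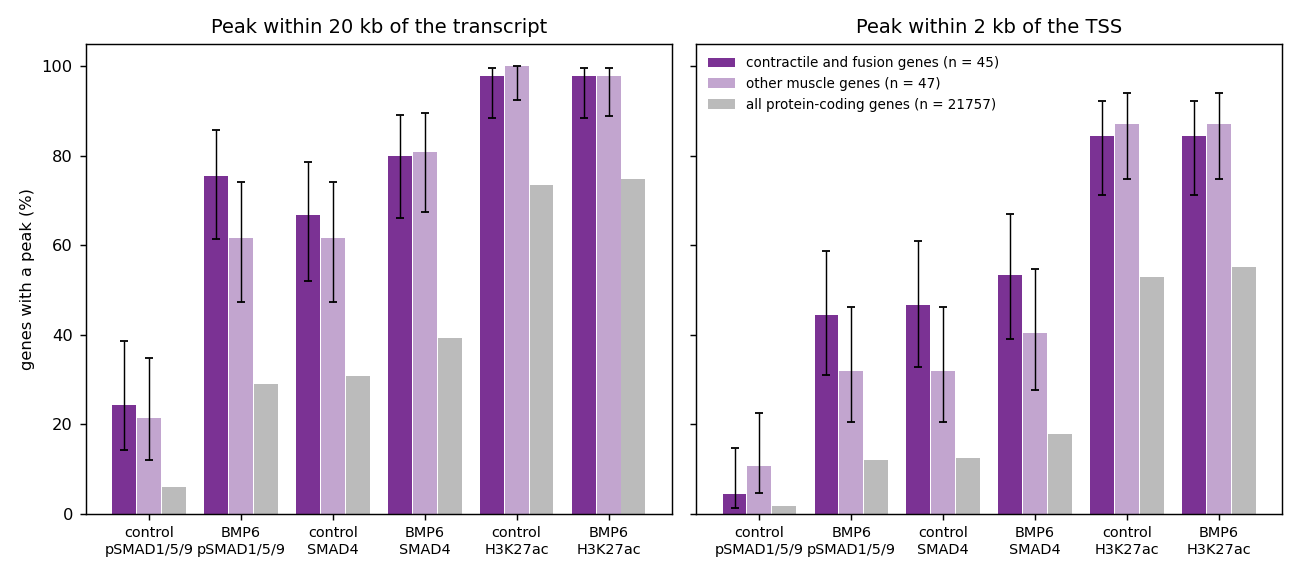
Percent of genes with a peak in each of the 6 lists (x axis), within 20 kb of the canonical transcript (left) and within 2 kb of the TSS (right). Dark bars are the 45 contractile and fusion genes, light bars 47 other muscle genes and grey bars all 21757 protein-coding genes, and error bars are 95% Wilson intervals. For pSMAD1/5/9 after BMP6 the dark bar stands at 75.6% on the left and 44.4% on the right, and the grey bars at 29.1% and 12%.

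Acetylated genes as a class carry more SMAD peaks, so the shares were also taken among genes with an H3K27ac peak in the same condition. Of the 44 acetylated contractile and fusion genes, 34 (77.3%, 63.0 to 87.2%) had pSMAD1/5/9 after BMP6, against 38.8% of all acetylated genes. In control it was 11 of 44 (interval 14.6 to 39.4%), against 8.13%. SMAD4 was at 36 of 44 after BMP6 (81.8%, 68.0 to 90.5%, against 52.3%) and at 30 of 44 in control (68.2%, 53.4 to 80.0%, against 41.8%). A further list of 47 muscle genes (Z-disc, triad, neuromuscular junction and metabolic genes that are not members) gave 29 genes (61.7%) with pSMAD1/5/9 and 38 (80.9%) with SMAD4 after BMP6, and 10 (21.3%) and 29 (61.7%) in control. The intervals of both gene lists overlapped in all 4 SMAD lists, and the difference between them was not tested.

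Genes newly listed after BMP6 outnumbered those listed in control only for both SMADs, but not for H3K27ac. For pSMAD1/5/9, 23 of 45 genes (51.1%, 37.0 to 65.0%) had a peak after BMP6 and none in control, against 23.5% of all genes, and 0 showed the opposite (upper bound of the interval 7.87%), against 0.400%. Of the 47 other muscle genes, 20 (42.6%, 29.5 to 56.7%) were newly listed for pSMAD1/5/9. For SMAD4, 8 genes were newly listed (17.8%, 9.29 to 31.3%, against 12.8%), a share whose interval holds that of all genes: Ckm, Myl3, Tcap, Myh7, Mybpc1, Tnnt1, Casq2 and Sgca. Myl1 and Casq1 had SMAD4 in control only, 4.44% of the members against 4.24% of all genes. For H3K27ac, Sgcd was listed after BMP6 only (against 2.14% of all genes) and Myh4 in control only (against 0.754%); each rested on 1 peak deep in its list, at rank 55001 of 78050 and rank 66883 of 67790. Both SMADs were present after BMP6 at 32 of 45 genes (71.1%, 56.6 to 82.3%), against 25.4% of all genes.

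The genes fell into a few classes by their SMAD lists. The 11 with a control pSMAD1/5/9 peak were listed for both SMADs in both conditions: Acta1, Des, Mylpf, Mybph, Tnni1, Tnni2, Tnnt2, Myom1, Mb, Mymk and Mymx (24.4%, against 5.28% of all genes). The largest class, 16 genes, had both SMADs after BMP6 and SMAD4 alone in control (35.6%, against 15.4%): Actc1, Actn2, Actn3, Myh2, Myh3, Myl4, Tnnc1, Tnnc2, Tpm1, Tpm2, Neb, Myom2, Ryr1, Atp2a1, Cacna1s and Dmd. Myh7, Mybpc1, Tnnt1, Casq2 and Sgca had both SMADs after BMP6 and none in control (11.1%, against 4.53%). Ttn had pSMAD1/5/9 only (2.22%, against 2.45% of all genes). Tnnt3 had SMAD4 in both conditions without pSMAD1/5/9 (2.22%, against 5.63%). No peak of either SMAD in any list was found at Myh1, Myh4, Myh8, Myl2, Mybpc2 and Sgcd (13.3%, against 53.9% of all genes).

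**Figure D2:**
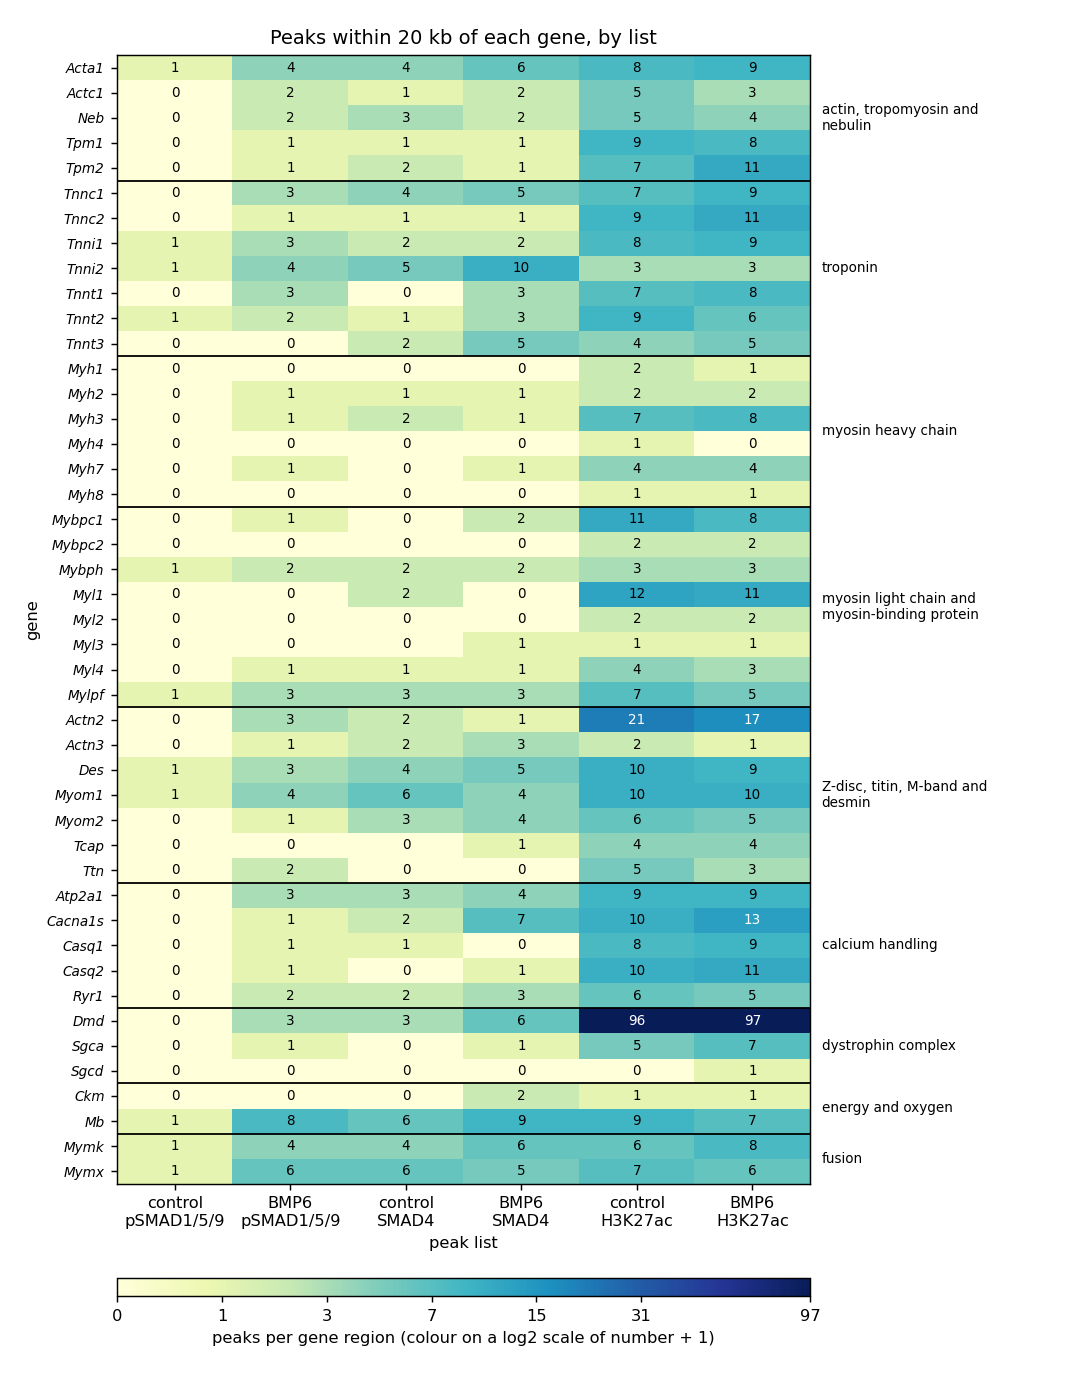
Number of peaks within 20 kb of each of the 45 genes (rows, grouped by role) in each of the 6 lists (columns), written in each cell, with the colour on a log2 scale. Mb (8 pSMAD1/5/9 and 9 SMAD4 peaks after BMP6) and Tnni2 (4 and 10) carried the most SMAD peaks, whereas Myh1, Myh4, Myh8, Myl2, Mybpc2 and Sgcd had 0 in all 4 SMAD lists.

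All 5 genes of actin, tropomyosin and nebulin had pSMAD1/5/9 after BMP6. Acta1, which encodes skeletal α-actin, the main thin filament protein of adult fibers, had 1 pSMAD1/5/9 peak in control and 4 after BMP6. The control peak lay 11617 bp downstream of the TSS at rank 203 of 949 (ranks 201 and 209 by the 2 replicate columns), and the same site had rank 1482 of 7339 after BMP6. The strongest site after BMP6 was another one, the promoter itself (chr8:124621231-124623180, GRCm39), with its summit 420 bp upstream of the TSS at rank 224 (226 and 287 by replicate column). SMAD4 was already listed there in control, with peaks at ranks 6269 and 8411 of 8577, and its best rank at the promoter after BMP6 was 1683 of 12860.

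Neb, which encodes nebulin, the protein that sets thin filament length, had no pSMAD1/5/9 in control and a peak after BMP6 (chr2:52209001-52209660) that overlaps an exon and has its summit in an intron 16553 bp into the gene, at rank 644 (638 and 784). SMAD4 stood at this site in both conditions, at rank 679 of 8577 in control and 1643 of 12860 after BMP6. Its 200 bases around the summit are shown (chr2:52209126-52209325, plus strand, GRCm39) because they hold a match to the MEF2 motif, in capitals. A match was found in 0.722% of the 7339 summit windows of the list.
Neb intron: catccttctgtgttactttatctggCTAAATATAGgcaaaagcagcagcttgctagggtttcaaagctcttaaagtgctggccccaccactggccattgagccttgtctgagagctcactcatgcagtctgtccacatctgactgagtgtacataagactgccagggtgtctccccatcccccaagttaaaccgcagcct

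Tpm2, encoding β-tropomyosin, had 1 pSMAD1/5/9 peak after BMP6, at the TSS (summit 862 bp downstream), with rank 693 (685 and 785), and a SMAD4 peak at rank 880 of 12860. Actc1, encoding cardiac α-actin of embryonic muscle, and Tpm1, encoding α-tropomyosin, had pSMAD1/5/9 at the TSS at ranks 1891 and 4404.

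Among troponins, the calcium switch of the thin filament, 6 of 7 genes had pSMAD1/5/9 after BMP6 and all 7 had SMAD4. Tnni2, encoding fast troponin I, had the strongest site of the group: a peak 11492 bp upstream of its TSS (chr7:141983641-141984960) at rank 164 (168 and 214) after BMP6 and rank 169 of 949 in control (172 and 160). SMAD4 marked it at rank 434 of 8577 in control and 306 of 12860 after BMP6. The nearest TSS, however, was that of Syt8, 4661 bp away, and none of the 4 pSMAD1/5/9 peaks of Tnni2 was nearest to its own TSS. The 200 bases around the summit (chr7:141983953-141984152, plus strand) hold 2 E-boxes CAGCTG, the MYOD class of site, and 1 BMP-responsive SMAD site GGAGCC, all in capitals.
Tnni2 upstream: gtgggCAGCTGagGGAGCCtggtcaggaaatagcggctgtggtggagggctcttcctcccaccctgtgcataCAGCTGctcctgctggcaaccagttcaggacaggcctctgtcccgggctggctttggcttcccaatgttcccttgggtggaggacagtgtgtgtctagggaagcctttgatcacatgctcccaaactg

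Tnni1, encoding slow troponin I, and its neighbor Tnnt2, encoding the troponin T of embryonic muscle, have regions that overlap. Tnni1 was bound 4503 bp upstream of its TSS at rank 610 after BMP6, with ranks of 431 and 1246 in the 2 replicate columns, and at rank 291 of 949 in control (264 and 317). The summit window (chr1:135722537-135722736, plus strand) holds 1 match to the BMP-responsive SMAD site, in capitals on the opposite strand.
Tnni1 upstream: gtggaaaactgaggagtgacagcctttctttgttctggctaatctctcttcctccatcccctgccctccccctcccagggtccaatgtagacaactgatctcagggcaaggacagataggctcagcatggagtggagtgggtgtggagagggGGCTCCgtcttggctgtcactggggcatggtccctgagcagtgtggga

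Tnnt2 was bound 26342 bp downstream of its TSS, beyond the end of the gene, at rank 963 (1039 and 966) after BMP6, and at rank 853 of 949 in control (878 and 830), the weakest control site of the group. SMAD4 marked it at rank 675 of 12860 after BMP6. Tnnt3, encoding fast troponin T, had 5 SMAD4 peaks after BMP6 and 2 in control, and no pSMAD1/5/9. Tnnc1, Tnnc2 and Tnnt1 encode slow and fast troponin C and slow troponin T. They had 3, 1 and 3 pSMAD1/5/9 peaks after BMP6 and 0 in control, none above rank 2746. As at Tnni2, no pSMAD1/5/9 peak of Tnnc1 or Tnnc2 was nearest to the gene's own TSS. The peaks of Tnnc1 were nearest to the TSS of Nisch or Sema3g, and that of Tnnc2 to the TSS of Ube2c. These peaks are assigned to both genes by distance alone.

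Myosin heavy chains, the motor subunits, had the lowest share of genes with SMAD4 after BMP6 among the 9 roles, 3 of 6. For pSMAD1/5/9 it was 3 of 6 after BMP6 and 0 in control. The adult fast genes Myh1 and Myh4 and the neonatal gene Myh8 lie side by side with Myh2 in 1 merged stretch (chr11:67041916-67219460). Within it the SMADs were listed at 1 place, 5865 bp upstream of the Myh2 TSS (chr11:67055548-67056210), at pSMAD1/5/9 rank 3121 (2678 and 3803) and SMAD4 rank 2326 of 12860 after BMP6, and SMAD4 rank 5125 of 8577 in control. Embryonic Myh3 and slow Myh7 had 1 pSMAD1/5/9 peak each after BMP6, at ranks 3422 and 5863.

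Of the myosin light chains and myosin-binding proteins, 4 of 8 had pSMAD1/5/9 after BMP6. Mybph held the best-ranked pSMAD1/5/9 site of all 45 genes in both lists: rank 162 after BMP6 (191 and 153 by replicate column) and rank 45 of 949 in control (58 and 38). The peak (chr1:134122951-134124432) has its summit in an intron 2317 bp from the TSS, and SMAD4 stood there at rank 697 of 8577 in control and 520 of 12860 after BMP6. Its summit window (chr1:134123388-134123587, plus strand) holds none of the planned motifs. It holds 1 copy over both strands of CAGAC, the core SMAD-binding letters, which were counted later. The whole peak of 1482 bp holds 4 BMP-responsive SMAD sites and 3 E-boxes CAGCTG.
Mybph intron: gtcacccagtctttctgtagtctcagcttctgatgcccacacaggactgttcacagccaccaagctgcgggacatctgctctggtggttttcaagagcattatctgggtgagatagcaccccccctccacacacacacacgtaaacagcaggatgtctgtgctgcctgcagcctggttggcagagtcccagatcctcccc

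Mylpf, encoding the fast regulatory light chain, was bound 2806 bp upstream of its TSS at rank 380 (422 and 363), a site listed in control at rank 449 of 949 and lying 98 bp from the TSS of its neighbor Tbc1d10b. Myl4 and Mybpc1, the embryonic light chain and the slow binding protein C, had pSMAD1/5/9 at the TSS at ranks 4618 and 2257. Myl1 had SMAD4 in control only, Myl3 had SMAD4 after BMP6 only, and Myl2 and Mybpc2 had neither SMAD.

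In the Z-disc and M-band group, 6 of 7 genes had pSMAD1/5/9 after BMP6. Des, which encodes the muscle intermediate filament desmin, had different leading sites in the 2 conditions. In control, 1 pSMAD1/5/9 peak lay 12734 bp upstream of the TSS at rank 583 of 949 (640 and 511). After BMP6 that site had rank 852, and a separate site 15330 bp upstream (chr1:75321052-75322590) came in at rank 170 (186 and 185), together with a peak at the TSS at rank 2200. SMAD4 was present at all 3 places in control, at ranks 1000, 1887 and 5994 of 8577. The summit window of the new site (chr1:75321437-75321636, plus strand) holds none of the planned motifs. It holds 1 copy of CAGAC over both strands.
Des upstream: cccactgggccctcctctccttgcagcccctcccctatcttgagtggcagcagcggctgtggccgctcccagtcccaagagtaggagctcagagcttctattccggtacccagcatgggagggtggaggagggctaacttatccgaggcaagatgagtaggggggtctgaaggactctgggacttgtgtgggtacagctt

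Myom1, encoding the M-band protein myomesin, had its strongest pSMAD1/5/9 site 16813 bp upstream at rank 574 (832 and 405) and at rank 407 of 949 in control. That site lies 199 bp from the TSS of Myl12a, a non-muscle light chain gene, so it is assigned to Myom1 by distance alone. Myom2 had SMAD4 at rank 274 of 8577 in control and 1554 of 12860 after BMP6, 8252 and 8268 bp upstream, without pSMAD1/5/9 at that site. The nearest TSS to it was that of BB014433, 2951 bp away in control and 2935 bp after BMP6. Actn2, Actn3 and Ttn, which encode Z-disc α-actinins and titin, had pSMAD1/5/9 after BMP6 at ranks no better than 4121, and Tcap, the titin cap, had SMAD4 only. The best pSMAD1/5/9 peak of Actn2, at rank 4999, lay 17 bp from the TSS of Mtr.

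All 5 calcium handling genes had pSMAD1/5/9 after BMP6 and 0 had it in control. Their best pSMAD1/5/9 peaks stood between 34.1% (Ryr1) and 94.4% (Casq1) of the way down the list. The best pSMAD1/5/9 ranks were 2500 for Ryr1, the calcium release channel, 3333 for Casq2, 4734 for Cacna1s, the voltage sensor, 5151 for Atp2a1, the fast calcium pump, and 6925 for Casq1. The 1 pSMAD1/5/9 peak of Cacna1s was nearest to the TSS of Kif21b, 5262 bp away. The best SMAD4 ranks of these genes were 1192 of 8577 in control, at Atp2a1, and 2060 of 12860 after BMP6, at Ryr1. In the dystrophin complex, Sgca, encoding α-sarcoglycan, had 1 pSMAD1/5/9 peak at rank 5465 and 1 SMAD4 peak at rank 12103, both after BMP6 only, and Sgcd had none. The pSMAD1/5/9 peak lay 19506 bp upstream of the Sgca TSS and nearest to the TSS of Ppp1r9b, 2044 bp away. Dmd, with a region of 2297 kb, had 97 H3K27ac peaks after BMP6 and 96 in control. Its 3 pSMAD1/5/9 peaks (ranks 6875, 7109 and 7326 of 7339) were the only 3 of the 80 in the group outside H3K27ac peaks.

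Ckm and Mb, the muscle creatine kinase and the oxygen store myoglobin, differed. Ckm had no pSMAD1/5/9, 2 SMAD4 peaks at the TSS after BMP6 (best rank 7236 of 12860), none in control, and 1 H3K27ac peak. Mb had 8 pSMAD1/5/9 peaks after BMP6 and 1 in control. The control peak, 8756 bp upstream at rank 324 of 949 (306 and 352), had rank 4016 of 7339 after BMP6 (6197 and 2182 by replicate column). The leading sites after BMP6 were 14108 bp upstream of the TSS (chr15:76920481-76921500) at rank 237 (202 and 384) and 7862 bp downstream of it (chr15:76898581-76899540) at rank 292 (378 and 243). SMAD4 covered both in control, at ranks 141 and 1060 of 8577, and its best rank in the group after BMP6, 148 of 12860 (127 and 213), was at the downstream site. The upstream site was nearer to the TSS of Apol6 (7515 bp).

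Both fusion genes belonged to the class listed in every SMAD list. Mymk had 4 pSMAD1/5/9 peaks after BMP6 and 1 in control. The shared site, in an intron 2265 bp from the TSS (chr2:26959453-26960340), had rank 1227 of 7339 after BMP6 (1211 and 1446) and rank 430 of 949 in control (394 and 462). Its summit window (chr2:26959863-26960062, plus strand) has 1 E-box CAGCTG in capitals.
Mymk intron, pSMAD1/5/9 and SMAD4: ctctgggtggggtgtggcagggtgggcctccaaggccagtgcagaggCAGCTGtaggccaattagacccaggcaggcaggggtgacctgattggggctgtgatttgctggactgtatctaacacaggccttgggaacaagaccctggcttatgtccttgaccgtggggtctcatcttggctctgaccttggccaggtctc

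The best-ranked SMAD4 peak of Mymk was a different one, 7744 bp into the gene in an intron (chr2:26954067-26954829), with no pSMAD1/5/9 peak in either condition. It had rank 734 of 12860 after BMP6 (688 and 841) and 159 of 8577 in control (104 and 397). An H3K27ac peak overlapped it after BMP6, at rank 51946 of 78050, and none did in control. Its window (chr2:26954384-26954583, plus strand) is shown because most of it is a tandem repeat: it holds CAGAC, the core SMAD-binding letters, 26 times over both strands. This motif was counted after the sequence had been seen. At least 10 copies were found in 90 of 12860 SMAD4 windows after BMP6 (0.700%), 39 of 8577 in control (0.455%) and 4 of 7339 pSMAD1/5/9 windows (0.0545%). The part of the repeat in the signal was not tested.
Mymk intron, SMAD4 only: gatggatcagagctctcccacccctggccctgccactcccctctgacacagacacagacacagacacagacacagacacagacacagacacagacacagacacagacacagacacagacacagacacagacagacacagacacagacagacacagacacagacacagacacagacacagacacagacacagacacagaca

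Mymx, encoding the second fusion protein, myomixer, had 6 pSMAD1/5/9 peaks after BMP6 and 1 in control. The control site 14269 bp upstream had rank 197 of 949 (176 and 234) for pSMAD1/5/9 and rank 205 of 8577 for SMAD4. After BMP6 it had rank 1154 for pSMAD1/5/9 and held the best-ranked SMAD4 peak of the gene, at rank 743 (590 and 1074). The best-ranked pSMAD1/5/9 peak after BMP6, at rank 889 (929 and 949), lay 4710 bp downstream of the Mymx TSS and nearest to the TSS of Slc29a1. The upstream SMAD4 window (chr17:45927093-45927292, plus strand) holds 3 E-boxes CAGCTG, in capitals.
Mymx upstream: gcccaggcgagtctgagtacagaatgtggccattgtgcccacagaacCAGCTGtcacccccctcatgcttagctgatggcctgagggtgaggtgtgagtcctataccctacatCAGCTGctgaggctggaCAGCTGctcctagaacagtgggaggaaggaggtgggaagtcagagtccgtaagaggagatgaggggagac

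**Figure D3:**
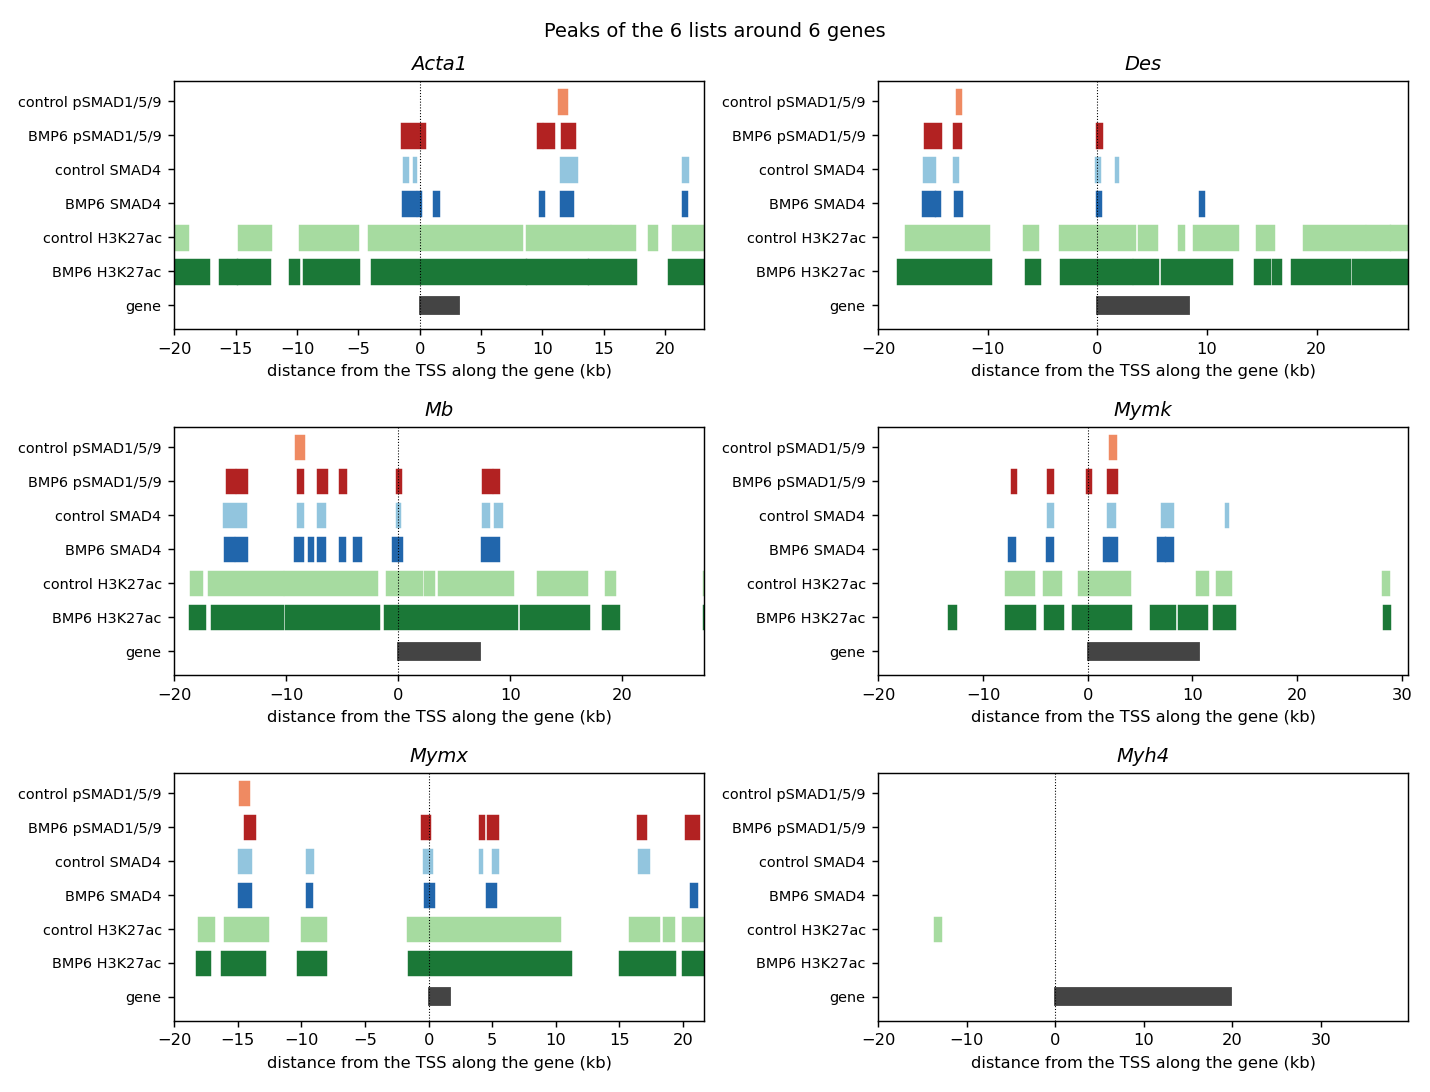
Peaks of the 6 lists (rows) around Acta1, Des, Mb, Mymk, Mymx and Myh4, drawn to scale as distance from the TSS along the gene (kb), with the gene in dark grey. Bars are peaks, those close together appear joined, and a dotted line marks the TSS. Acta1, Des and Mb had 1 pSMAD1/5/9 peak in control and 4, 3 and 8 after BMP6, whereas Myh4 had no SMAD peak and 1 control H3K27ac peak.

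Over all 45 genes, 10 had a peak in the strongest 10% of the pSMAD1/5/9 list after BMP6 (22.2%, 12.5 to 36.3%, against 4.16% of all genes): Mybph, Tnni2, Des, Acta1, Mb, Mylpf, Myom1, Tnni1, Neb and Tpm2. Tpm2 at rank 693 was the last gene inside and Mymx at 889 the next outside. The strongest 10% of the SMAD4 list also held 10 genes (22.2%, against 6.50%): Mb, Tnni2, Mybph, Mylpf, Tnnt2, Mymk, Mymx, Tnni1, Myom1 and Tpm2, which came last at rank 880, with Des next outside at 1297. Of the 47 other muscle genes, 6 (12.8%, 5.98 to 25.2%) had a pSMAD1/5/9 peak and 7 (14.9%, 7.41 to 27.7%) a SMAD4 peak in the strongest 10%. These intervals overlapped those of the 45 genes. Taken peak by peak, the median rank at the 45 genes was 45.2% of the way down the pSMAD1/5/9 list and 48.4% down the SMAD4 list. The 45 regions held a mean of 1.78 pSMAD1/5/9 peaks after BMP6, against 0.498 over all genes. Of the 10 pSMAD1/5/9 sites, the 2 replicate columns lay furthest apart at Tnni1.

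**Figure D4:**
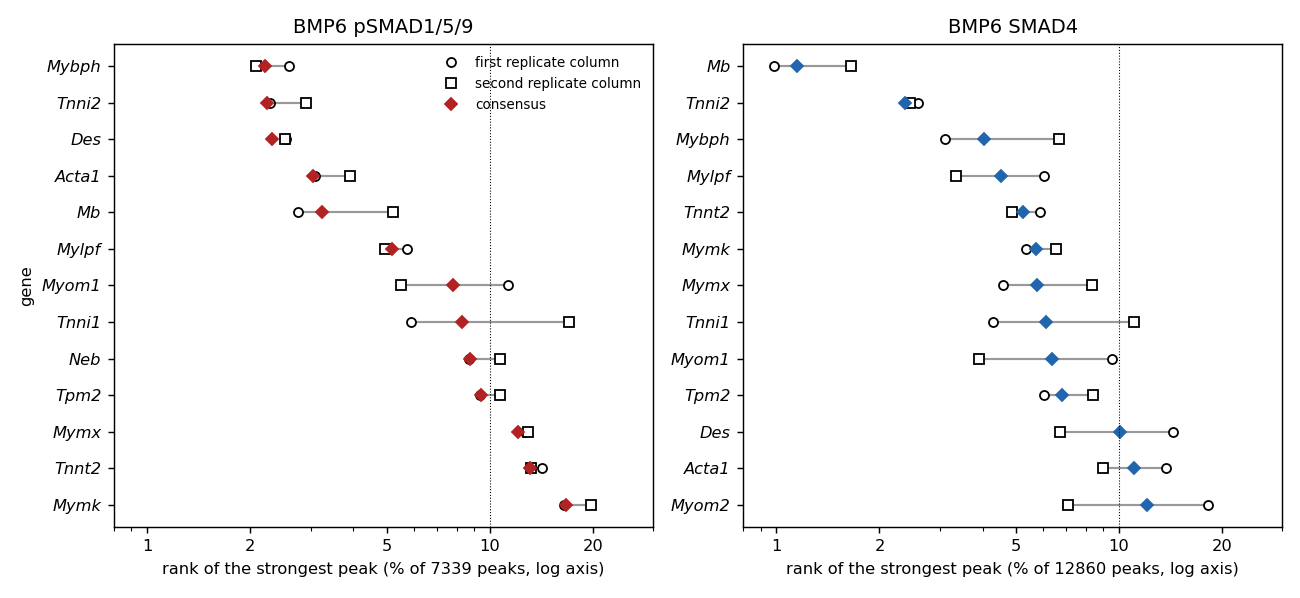
Rank of the strongest peak of the 13 best-ranked genes after BMP6, for pSMAD1/5/9 (left) and SMAD4 (right), as percent of the list on a log axis. Diamonds are the consensus rank, circles and squares the ranks by the 2 replicate columns, and the dotted line marks the strongest 10%. Mybph, Tnni2 and Des lead on the left, and Mb and Tnni2 on the right.

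Of the 11 genes with a control pSMAD1/5/9 peak, the control site was also the best-ranked site after BMP6 at 7, and another site led at 4, namely Acta1, Des, Mb and Mymx. All 11 control peaks overlapped a peak in each of the other 5 lists. In the whole control list of 949 peaks, 84.7% overlapped pSMAD1/5/9 after BMP6, 87.9% SMAD4 after BMP6 and 84.0% control SMAD4. For H3K27ac it was 99.8% after BMP6 and 99.6% in control. Each share lay inside the interval of the 11 (74.1 to 100%). The share overlapping all 5 lists at once was not taken.

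In all, the regions held 80 distinct pSMAD1/5/9 peaks after BMP6 and 11 in control, a ratio of 7.27 (7.73 in the whole lists). SMAD4 numbered 115 and 81, a ratio of 1.42 (12860 and 8577 peaks in the whole lists), and H3K27ac 357 and 360, a ratio of 0.992 (1.15). The ratios for the SMADs lay close to those of the whole lists, while the densities at these genes lay above those of all gene regions. There were 1.36 pSMAD1/5/9 peaks per 100 kb after BMP6, against 0.440 over all gene regions, and 0.188 in control, against 0.0592. SMAD4 density was 1.96 after BMP6 and 1.38 in control, against 0.759 and 0.512. Without Dmd, whose region made up a large part of the 5.87 Mb, the pSMAD1/5/9 densities were 2.16 and 0.308.

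The overlap of the 2 SMADs at these genes was set beside the whole lists and beside all peaks within 20 kb of a protein-coding gene. Of the 80 pSMAD1/5/9 peaks after BMP6, 60 (64.5 to 83.2%) overlapped SMAD4 after BMP6, against 73.2% in the whole list and 73.7% in gene regions, and 60.0% (49.0 to 70.0%) overlapped control SMAD4, against 57.2% and 57.6%. In the other direction, 60 of the 115 SMAD4 peaks after BMP6 (52.2%, 43.1 to 61.1%) overlapped pSMAD1/5/9, against 42.7% in the whole list, which lies below the interval, and 43.7% in gene regions, which lies inside it. Among the 69 pSMAD1/5/9 peaks listed after BMP6 only, 37 (53.6%, 42.0 to 64.9%) lay on a SMAD4 peak of control cells, against 53.3%, and 65 (94.2%, 86.0 to 97.7%) on control H3K27ac, against 97.2%. Of the 115 SMAD4 peaks after BMP6, 54.8% (45.7 to 63.6%) were shared with control, against 45.5% and 46.4%.

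Since the peaks were chosen for lying near a gene, their positions were set beside all peaks within 20 kb of a protein-coding gene. Among pSMAD1/5/9 peaks after BMP6, 47.5% (36.9 to 58.3%) lay within 2 kb of a protein-coding TSS of any gene, against 41.4%, a share inside the interval. Introns held 17.5% (10.7 to 27.3%), against 34.7%, and 31.2% (22.2 to 42.1%) were intergenic, against 17.7%. For SMAD4, 44.3% (35.6 to 53.5%) lay at a TSS, against 38.9%, 20.9% (14.4 to 29.2%) in introns, against 37.6%, and 31.3% (23.5 to 40.3%) were intergenic, against 17.4%. Another protein-coding TSS was present in 32 of the 45 regions, and in 13083 of the 21757 regions of all genes. Of the 13 genes without such a neighbor, 9 had pSMAD1/5/9 after BMP6 and 2 in control, and 9 and 8 had SMAD4. The share among all genes without a neighbor was not taken, so these counts stand without a background. When a peak had to be nearest to the gene's own TSS, 28 genes had pSMAD1/5/9 after BMP6, against 17.0% of all genes, and 8 in control, against 2.98%.

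The summit windows of 200 bp were searched on both strands for motifs. The E-box CAGCTG was found in 34 of 80 pSMAD1/5/9 windows (42.5%, 32.3 to 53.4%), against 31.1% of the list, and in 36 of 115 SMAD4 windows (31.3%, 23.5 to 40.3%), against 29.1%. The BMP-responsive site GGAGCC or GGCGCC was in 26.2% (17.9 to 36.8%) of pSMAD1/5/9 windows, against 30.2%. MCAT, CATTCC, was in 23.8% (15.8 to 34.1%), against 15.8%, and MEF2 in 3 windows (3.75%, 1.28 to 10.5%), against 0.722%. AP-1, TGACTCA or TGAGTCA, was in 10.0% (5.15 to 18.5%), against 15.5%, and CAGGTG in 10.0%, against 11.4%. The CArG box was in 2.50%, against 1.42%, and the palindrome GTCTAGAC in 0 (upper bound 4.58%), against 0.518%. In SMAD4 windows after BMP6, MCAT was in 17.4%, against 15.0%, and MEF2 in 0.870%, against 0.739%. There AP-1 was in 8.70%, against 15.1%, and the CArG box in 3.48%, against 1.24%. In 400 bp windows CAGCTG was in 63.7% of pSMAD1/5/9 windows, against 45.7%. GC content of the windows was alike, with medians of 55.8% and 56.0%.

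H3K27ac coverage of these gene regions lay above that of all gene regions already in control cells. The peaks covered a median of 22.0% of a gene region in control and 25.3% after BMP6, against 5.68% and 7.07% of all gene regions. The 47 other muscle genes had similar medians, 23.2% in control and 29.3% after BMP6. Among the 45 genes, coverage was higher after BMP6 at 33, lower at 11 and equal at 1, and over all genes it was higher at 13201, lower at 3188 and equal at 5368. The median difference was 0.989 percentage points for these genes and 0.679 for all genes. Acta1 was covered over 77.3% in control and 85.4% after BMP6, Des over 69.3% and 78.8%, and Mymk over 25.3% and 37.9%. Myh4 and Sgcd lay at the other end, with 1.34% and 0% in control and 0% and 0.270% after BMP6. The best-ranked H3K27ac peaks after BMP6 were at Mb (rank 217 of 78050), Tnnc1 (302), Acta1 (360), Dmd (442) and Tnni2 (515). No H3K27ac peak of Tnnc1 or Tnni2 after BMP6 was nearest to the gene's own TSS. The rank of Dmd is the best of 97 peaks over a region of 2297 kb.

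**Figure D5:**
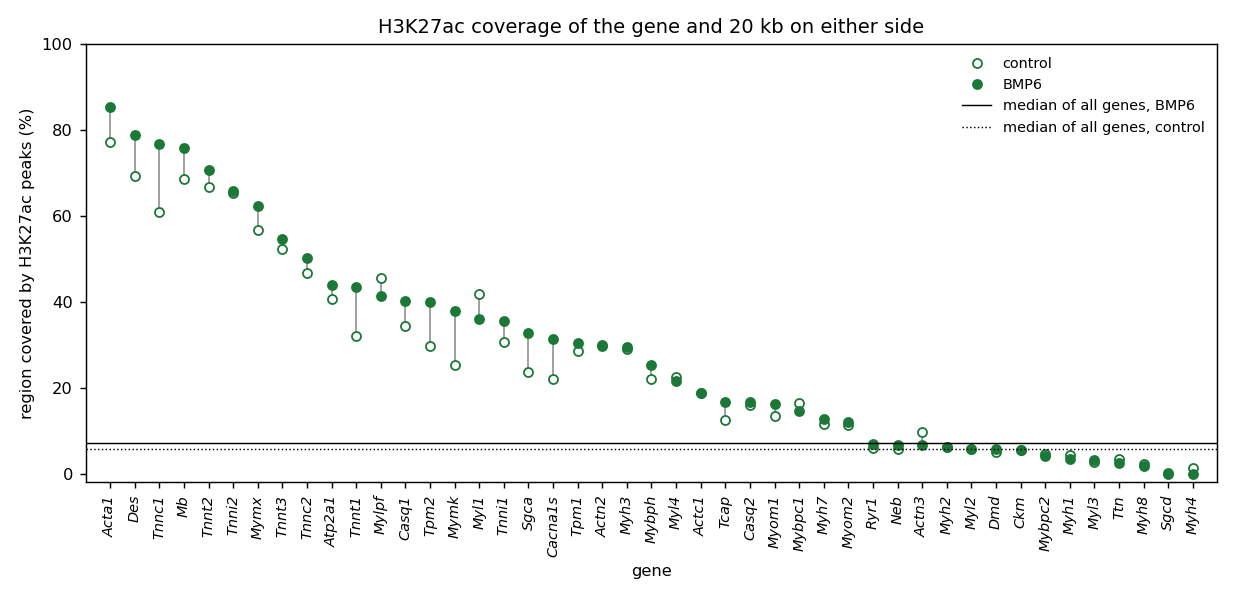
Percent of each gene region (transcript and 20 kb on either side) covered by H3K27ac peaks in control (open circles) and after BMP6 (filled circles), for the 45 genes in order of coverage. The lines mark the medians of all genes, 5.68% in control and 7.07% after BMP6. Acta1 and Des stand highest and Sgcd and Myh4 lowest.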

How the data were processed

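CUT&Tag profiles of pSMAD1/5/9, SMAD4 and H3K27ac were used from 12 samples in 6 groups. Per the study's methods, the authors brought the libraries of an antibody to 1 common depth by subsampling, aligned reads with Bowtie2 2.5.4 (GRCm39), kept proper pairs above a mapping quality limit outside blacklisted regions (SAMtools 1.21, bedtools 2.31.1, per the submitters' processing notes), ran JAMM separately for both replicates and retained peaks with an irreproducible discovery rate (IDR) of at most 0.05. SMAD lists were made from JAMM's filtered peaks and H3K27ac lists from all of its peaks. The deposited signal columns are JAMM scores, 1 for the consensus and 1 for each of the 2 replicates, without a stated normalization. The deposited IDR column is on a −log10 scale. Groups were taken from the sample titles. The depth per sample was not given in the files.

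Gene regions were the Ensembl canonical transcripts of GENCODE with 20 kb on either side; genes on the mitochondrial chromosome were left out. Peaks sharing at least 1 bp with a region were counted (Python 3.11.15, pandas 2.3.3, pysam 0.24.0), and the interval counting was tested on simulated data. Promoter sequences from RefSeq were of another build and were not used. The members and lists were chosen with earlier results of these data known. Genes described singly were the 10 members with the best-ranked pSMAD1/5/9 peak and the 10 with the best-ranked SMAD4 peak after BMP6, those with control pSMAD1/5/9, the 5 with the best-ranked H3K27ac, those without SMAD or H3K27ac peaks, those with overlapping regions, and Mymk, Mymx, Des, Ckm and Sgca; other genes were named as members of their role. Alternatives were stricter IDR, other gene extents, TSS windows, overlaps and motif windows, and ranks by replicate column. The comparison of positions and overlaps with all peaks in gene regions was added after seeing the data.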

Additional observations from a re-analysis of the deposited data

How the results depend on the processing

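Counts of genes with a peak depended most on the stringency and the extent around the gene. At an IDR of at most 0.01, 19 of the 45 genes had pSMAD1/5/9 after BMP6 (17.3% of all genes), 3 in control (0.915%), 19 had SMAD4 in control (16.2%) and 17 both SMADs after BMP6 (14.9%), while at the TSS 10 had pSMAD1/5/9 after BMP6 (6.14%), 1 in control (0.230%) and 9 SMAD4 in control (5.58%). In the gene body alone, 22 had pSMAD1/5/9 after BMP6 (16.5%), 2 in control (2.77%) and 21 both SMADs (13.3%), with 29 and 49 peaks of pSMAD1/5/9 and SMAD4. In the proximal region (1.5 kb before the TSS and 0.5 kb after it), the counts were 18 (11.2%) and 0 (1.56%) for pSMAD1/5/9, 20 (16.6%) and 18 (11.4%) for SMAD4, 4 newly listed for SMAD4 (8%) and 15 for both (8.48%). With 50 kb on either side, 5 genes were newly listed for SMAD4 (13.0%). Control pSMAD1/5/9 was at 0 TSSs within 1 kb (1.55% of all genes) and at 4 when any basic transcript counted (1.97%). An overlap of at least 50% of both peaks left 58.8% of pSMAD1/5/9 peaks on SMAD4 (57.1% in the whole list), 40.0% of SMAD4 peaks shared with control (34.3%), and 2.50% of pSMAD1/5/9 and 1.74% of SMAD4 peaks on H3K27ac, whose peaks are wider. Without Dmd, added after seeing the data, and at an IDR of at most 0.01, 100% of pSMAD1/5/9 peaks lay on H3K27ac. Windows of 400 bp raised every motif share in the lists and most in the members, for CAGCTG in pSMAD1/5/9 peaks to 45.7% and 63.7%. In members the palindrome stayed at 0, and MEF2 in pSMAD1/5/9 peaks stayed at 3.75%, while its share of the list rose from 0.722% to 1.35%. Summits, nearest TSSs, basic transcripts, autosomes alone and merged member regions (the last added after seeing the data) left every count of genes with a peak within 1.5 times. Of the 10 best-ranked pSMAD1/5/9 sites, that of Tnni1 moved most when ranked by either replicate column alone, to 431 and 1246. No paired analysis was possible because the replicate columns carry no replicate number and no result comes from a test. Each list is 1 consensus, the depth is unknown, and a peak missing from a list may lie just under its threshold.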
